A study of Danio rerio with 4 samples.

Results

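The libraries described here hold the RNA of whole zebrafish embryos labelled KDM5A-KO, collected 24 and 48 hours after fertilization (hpf). They are 2 of the 4 libraries of the series, chosen by their labels and not by any measured value. The other 2 are WT embryos of the same ages. Each group had 1 library, so every difference below is a description with no replicate check and no p-value. According to the labels, the Kdm5a gene was knocked out with CRISPR/Cas9, WT and KO fish were mated separately, and all fish were kept under the same conditions. The methods of the study describe instead a guide RNA injected with a Cas9 plasmid into embryos that were then pooled for RNA. A pool averages over embryos, and an injected pool can hold embryos that are edited to different degrees. The titles of the KO samples carry the letters mo, which no source spells out, though the study calls its injected embryos morphants. The library kit also differs between the methods (NEBNext Ultra) and the labels (SMARTER).

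The columns of values are headed K1, K2, C1 and C2. Taking K for KDM5A-KO, C for WT and the numbers for the earlier and later age is an inference that neither the table nor the labels state. Values are FPKM, fragments scaled by gene length and by the mapped total of the library. Library totals were recovered from the steps of these values. The libraries labelled KDM5A-KO held 14724748 reads at 24 hpf and 15922314 at 48 hpf, so their depth was alike. The WT libraries held 7441797 and 15525056 reads. Genes of ribosomal RNA (rRNA) took 0.429% of the reads at 24 hpf (95% Wilson interval 0.426 to 0.433) and 0.290% at 48 hpf (0.287 to 0.292) under the KDM5A-KO label, against 12.1% (12.06 to 12.10) and 0.432% (0.429 to 0.435) in WT. Genes of any type within 15 kb of some of the rRNA genes were counted with them. In what follows, "the 24 hpf library" and "the 48 hpf library" are the 2 libraries labelled KDM5A-KO unless WT is named.

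KDM5A removes methyl groups from lysine 4 of histone H3, a mark of active promoters. Between these ages a zebrafish embryo ends segmentation, hatches or prepares to hatch, and its lens, retina, fast muscle, skin and neurons mature. The targeted gene is listed as KDM5A on an unplaced scaffold, with no statement of the genome build. It stood at 20.3 FPKM in the 24 hpf library and 16.3 in the 48 hpf library, against 13.8 and 18.1 FPKM in WT. At 24 hpf the KO label thus went with the higher value, which does not bear out the label at the level of mRNA. An edited gene can still be transcribed, so this checks the label only in part. Its FPKM was 1.24-fold (95% interval 1.14 to 1.36) lower at 48 than at 24 hpf, short of 2-fold, while its WT value was higher at 48 hpf. Among its paralogs, kdm5ba went from 17.4 to 30.3 FPKM, kdm5bb from 33.5 to 46.9 FPKM and kdm5c from 39.2 to 47.1 FPKM, again with none past 2-fold.

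Genes were compared as log2((FPKM at 48 hpf + 1)/(FPKM at 24 hpf + 1)), a scale that understates the change of genes with low values. "Rose" and "fell" are used for genes past 2-fold on this scale. Of the 26812 genes of the table, 18218 had at least 1 FPKM in either library, and 1699 of these rose (9.33%) and 948 fell (5.20%). Their median log2 ratio was -0.11. A change of 8-fold or more was reached by 120 genes upwards and 35 downwards. Dividing each library by its median ratio to the other moved the log2 ratios up by 0.17, and 2046 genes then rose and 678 fell, so that 75.1% of the genes past 2-fold were higher in place of 64.2%. Folds of single genes are given as FPKM ratios with exact 95% intervals of the recovered reads, which cover counting error only. In RNA of whole embryos, a change in the number of cells of a type and a change of RNA per cell cannot be told apart.

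The numbers 1 and 2 of the columns were checked with genes of known timing. Of the 35 measured genes of somite segmentation and the tailbud, which are active before 24 hpf and fade afterwards, 18 fell and none rose. Of the 40 measured lens crystallin genes, which switch on as lens fibres form, 37 rose and 1 fell. Of the 20 measured melanophore genes, 10 rose and none fell. All these stand against 9.33% and 5.20% of all genes measured. A gene that reached 1 FPKM through its higher library alone had to show a difference, and the lists were chosen with earlier results known. Over all members in the table, the list medians were -0.82 for segmentation and tailbud, 3.55 for crystallins and 0.92 for melanophores. Within these limits, the order of the columns matched the ages in the labels. The reading of the letters K and C could not be checked in this way.

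The 15 largest rises among protein-coding genes with a symbol were led by the lens. Of the 15, 9 were crystallins, the soluble proteins that make the lens transparent. The rest were the inducible heat shock gene hsp70l, the calcium pump gene atp2a1l, the creatine kinase gene ckmt2b and the titin-binding gene tcap of muscle, the skin keratin krtt1c19e and ponzr3. The 15 largest falls included 3 genes of the hatching gland (he2, he1b and ctslb), 4 of muscle (tnni2b.1, tnnt2c, tmem8c and METTL21C) and 2 of the tailbud (msgn1 and cdx4). The falls also included cyp4t8, afp4, rnf41l, efemp2b, slc2a1a and crip2.

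**Figure D1:**
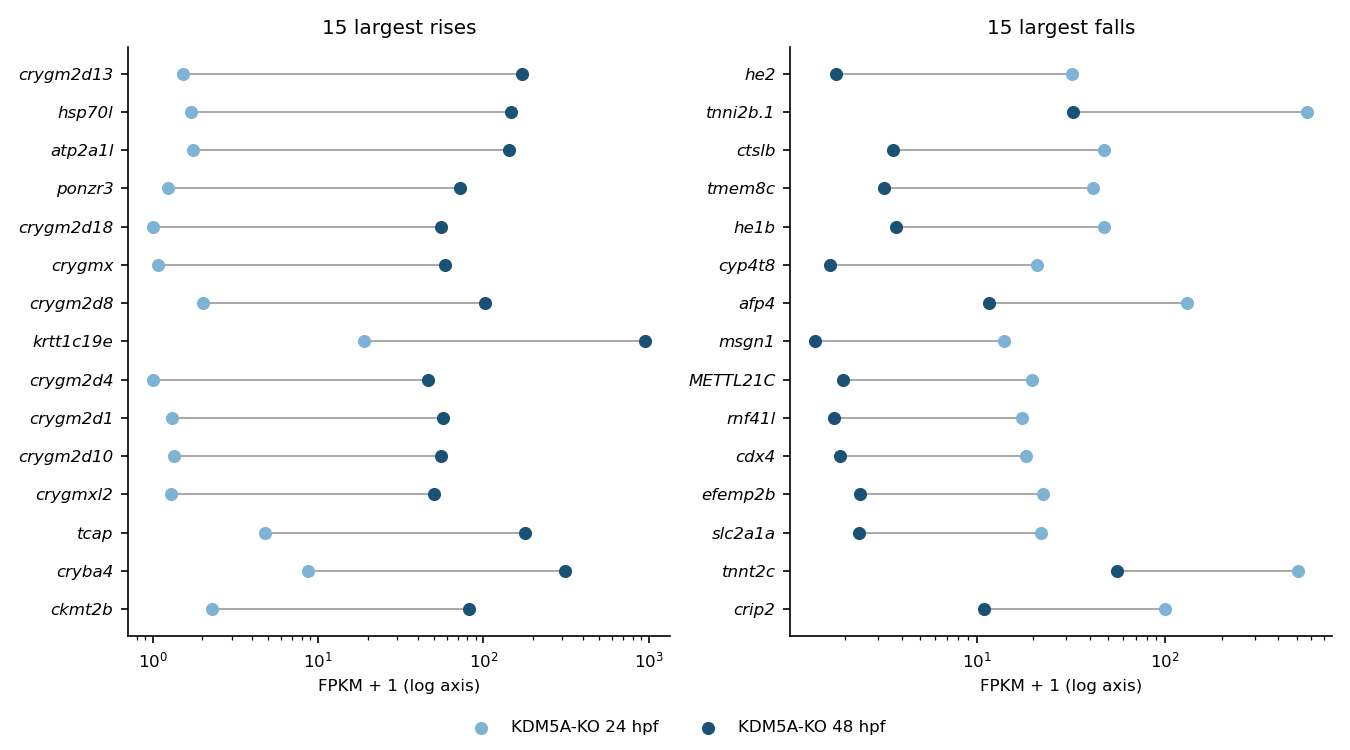
The 15 largest rises and the 15 largest falls from 24 to 48 hpf among protein-coding genes with a symbol, as FPKM plus 1 on a log axis, 1 point per library labelled KDM5A-KO. For crygm2d13, at the top of the rises, the points stand at 0.519 and 169.9 FPKM before 1 is added, and for he2, at the top of the falls, at 31.2 and 0.784.

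Lens fibre genes went from near 0 to high levels. The gamma crystallin gene crygm2d13 was at 0.519 FPKM at 24 hpf (5 reads) and 169.9 FPKM at 48 hpf (1769 reads), a ratio of 327-fold (95% interval 139.9 to 1009). For crygmx, 1 read and 775 reads gave 0.0801 to 57.4 FPKM, with an interval of the fold from 128 upwards. No read was found at 24 hpf for crygm2d18 and crygm2d4. Against a floor of 3 reads in that library, they were at least 169-fold and at least 195-fold higher at 48 hpf, where they reached 54.7 and 45.3 FPKM. The gamma crystallins of this family are close copies of each other, so the share of each in the reads is uncertain, while all of those named here moved in the same direction. The beta crystallins cryba4 and crybb1 began at higher levels, 7.66 and 12.2 FPKM, and reached 309 and 226. Over all 51 crystallin genes of the table, 40 were measured and their median log2 ratio was 4.2. The one crystallin gene that fell was crybb3, from 23 to 2 reads.

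Genes for the membranes and filaments of lens fibres followed the crystallins. Of 12 measured, 7 rose and none fell, with a median log2 ratio of 2.2. The beaded filament gene bfsp2 went from 0.0784 to 16.3 FPKM and mipb, an aquaporin of lens fibres, from 0.413 to 21.5 FPKM. The intrinsic membrane protein genes lim2.3 went from 0.649 to 27.6 FPKM and lim2.4 from 2.3 to 46.0 FPKM. In contrast, foxe3, a transcription factor of the lens epithelium, was at 2.84 FPKM and then 1.29, short of 2-fold.

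The retina moved less than the lens. Of 20 genes of the eye field and of retinal progenitors, 5 rose and none fell (median log2 ratio 0.67). The largest rise was that of atoh7, needed for retinal ganglion cells, from 0.195 to 7.09 FPKM (3 to 118 reads). The bipolar cell factor vsx1 went from 1.62 to 11.8 FPKM and the eye field factor rx2 from 0.752 to 5.25 FPKM. Photoreceptor and pineal genes were low at both ages. Of 43 in the table, 18 reached 1 FPKM in either library, 5 rose and 1 fell (median 0.63). The photoreceptor factors crx, otx5 and nr2e3 went from 0.371 to 2.64 FPKM, 0.777 to 6.04 FPKM and 0.361 to 2.06 FPKM. Rhodopsin, the light sensor of rods, was at 0 reads and then at 10, a level of 0.404 FPKM. The gene that fell was aanat2, an enzyme of melatonin synthesis in the pineal gland, from 4.04 to 1.35 FPKM.

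Fast skeletal muscle had the highest list median outside the eye over measured members. The list holds 47 measured genes of the sarcomere, calcium handling and energy supply of fast fibres. Of these, 33 rose and 3 fell, with a median log2 ratio of 1.61. The calcium buffers of fast fibres rose steeply. Parvalbumin pvalb1 went from 196 to 5512 FPKM, 28.2-fold (95% interval 27 to 29.3), and pvalb2 from 293 to 4597 FPKM. Together with the alpha actin gene actc1b (4869.7 to 12850.5 FPKM), the light chain gene mylpfa (1270.0 to 4968 FPKM) and the creatine kinases ckma (948 to 3877 FPKM) and ckmb (1161 to 4424 FPKM), they made up 6 of the 10 protein-coding genes with the highest FPKM at 48 hpf. In the same ranking at 24 hpf, actc1b was the one muscle gene, beside genes of mitochondria, translation and keratin.

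Some muscle genes were set beside a close relative. The troponin I gene tnni2b.1 fell from 569.7 to 31.4 FPKM, 18.1-fold (95% interval 16.8 to 19.6), and the neighbouring copy tnni2b.2 rose from 0.0606 to 28.1 FPKM. Because tnni2b.2 had 1 read at 24 hpf, the interval of its fold runs from 82.8 upwards. For troponin T, tnnt2c fell from 509.8 to 54.5 FPKM while tnnt3b rose from 96.5 to 1175 FPKM. The pair smyd1b and smyd1a encode methyltransferases that assist myosin assembly. In that pair, smyd1b fell from 264 to 119 FPKM and smyd1a rose from 32.7 to 202 FPKM. The calcium pump gene atp2a1 was already at 1083 FPKM and went to 2619, whereas atp2a1l began at 0.752 and reached 141, 187-fold (95% interval 138 to 261). The acetylcholine receptor has a gamma subunit in the embryo and an epsilon subunit in adult mammals. The gamma gene chrng fell from 68.6 to 16.8 FPKM, and the epsilon gene chrne stood at 23.4 and then 19.7 FPKM, short of 2-fold. In 3 of these 5 pairs one gene fell and the other rose, and in the pairs atp2a1 with atp2a1l and chrng with chrne they did not. The partners were chosen after their values were seen.

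Myogenic regulators showed no common direction. The myoblast fusion gene tmem8c, known as myomaker, fell from 40.4 to 2.23 FPKM, 18.1-fold (95% interval 14.3 to 23.3). The differentiation factor myog fell from 11.1 to 3.15 FPKM, while myod1, which acts before it, was at 30.1 and then 32.4 FPKM. The list of myogenic regulators does not hold tmem8c, so its counts leave out that fall. Over 22 measured myogenic regulators, 1 rose (lbx1a, 1.86 to 8.95 FPKM) and 3 fell (myog, mef2d and si:ch1073-268j14.1). The last of these had the lowest log2 ratio of the list, -3.28. The median of the list was -0.04, and 0.10 after rescaling. Chaperones of the myosin motor also fell, with hsp90aa1.1 going from 167 to 68.9 FPKM and unc45b from 95 to 44.7 FPKM. Slow muscle showed no common direction. Of 13 genes, 1 rose, tnnc1b from 181 to 376 FPKM, and 1 fell, smtnl1 from 26.8 to 3.88 FPKM.

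**Figure D2:**
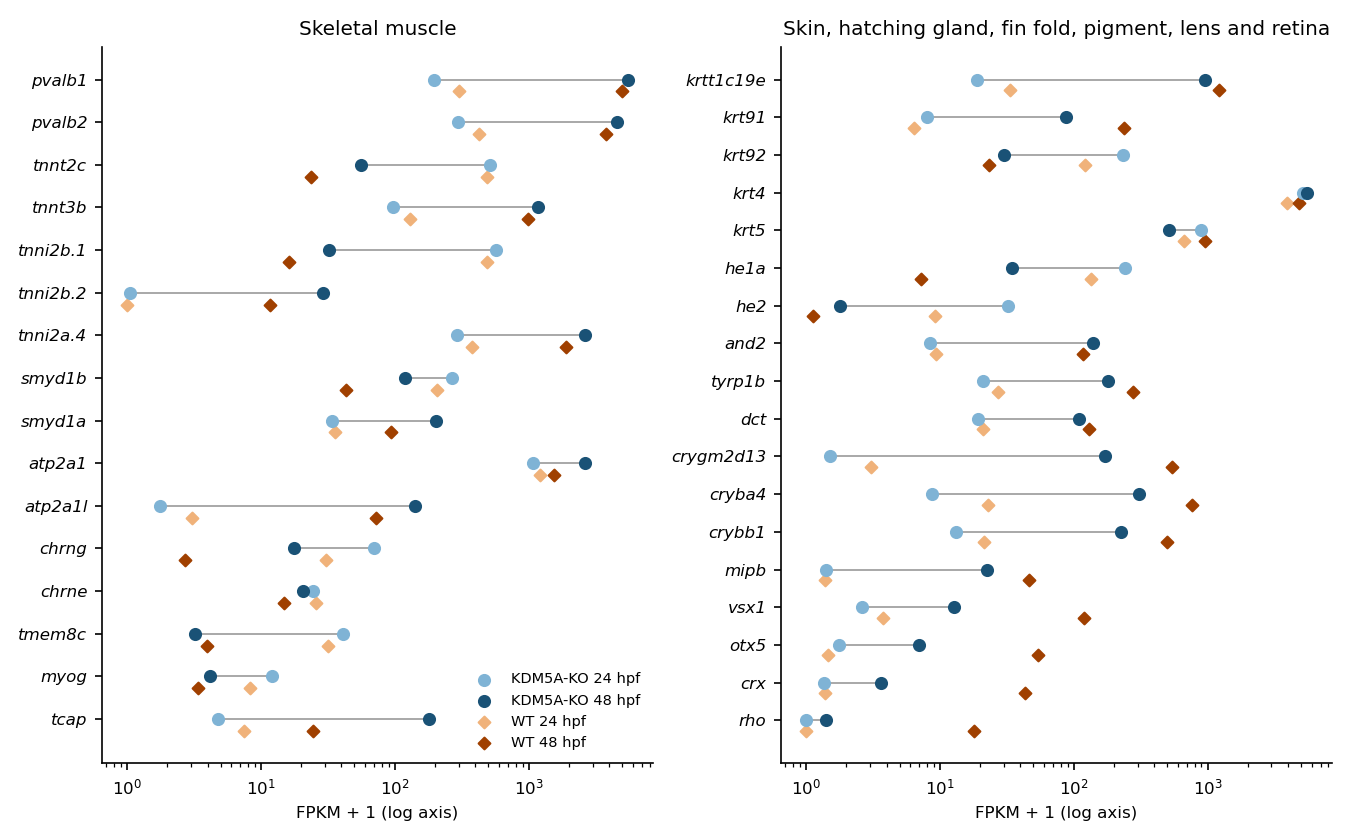
FPKM plus 1 on a log axis for genes of skeletal muscle (left) and of skin, hatching gland, fin fold, pigment, lens and retina (right), 1 point per library, with circles for the libraries labelled KDM5A-KO and diamonds for WT. tnni2b.1 runs from 569.7 down to 31.4 FPKM and tnni2b.2 from 0.0606 up to 28.1, and the WT diamond of otx5 at 48 hpf (53.3) lies far to the right of the circles.

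The heart list held 27 measured genes, of which 3 rose and 2 fell (median -0.38). These counts lie near the 9.33% higher and 5.20% lower among all genes measured. After rescaling, 5 genes of the list rose and none fell. The largest rise of the list was tcap, which caps titin at the Z-disc in heart and skeletal muscle, from 3.77 to 178 FPKM, 47.4-fold (95% interval 37.1 to 61.4). The myosin-binding protein mybpc3 went from 5.78 to 35.6 FPKM and the natriuretic peptide nppa from 1.63 to 8.66 FPKM. Among light chain genes of the myocardium, cmlc1 fell from 34.2 to 15.3 FPKM and myl7 was at 27.5 and then 16.7 FPKM. The list includes genes such as tcap that also act in skeletal muscle, so it does not speak for the heart alone.

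Blood and vessel genes leaned downwards. Of 30 measured globin and erythroid genes, 10 fell and 1 rose (median -0.65). The heme enzyme urod fell from 77.1 to 12 FPKM, 6.42-fold (95% interval 5.61 to 7.38), the factor gata1a from 4.54 to 0.390 FPKM and the factor klf17 from 15.8 to 2.67 FPKM. The gene klf17 is also in the hatching gland list, so its fall does not speak for blood alone. The globins differed among themselves. The embryonic globin hbz fell from 7.26 to 0.796 FPKM and hbae1 rose from 5.13 to 11.3 FPKM. The alpha-type globin hbae3 stood at 835 FPKM and then 976, and the beta-type hbbe1.1 at 341 and then 405. Globins are close copies, so their shares of the reads are uncertain. Of 50 endothelial genes, 11 fell and 1 rose (median -0.38). The early vessel factors etv2 fell from 21.7 to 5.92 FPKM and lmo2 from 17.0 to 4.28 FPKM. The largest fall of the endothelial list was that of the glucose transporter slc2a1a (log2 ratio -3.22), which is also in the glycolysis list. The markers of established endothelium named here did not pass 2-fold, with kdrl at 7.71 and 9.72 FPKM and cdh5 at 8.90 and 7.37. Of these, cdh5 was picked after its values were seen, so they do not speak for other markers. The gene that rose was lyve1a, a lymphatic marker, from 0.339 to 4.39 FPKM.

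Some or most genes of differentiated neurons rose in each of the 3 lists that hold them. Of 67 measured genes of postmitotic neurons and synaptic vesicles, 44 rose and none fell, with a median of 1.21. The neurofilament gene neflb rose most, from 1.09 to 16.9 FPKM, and nefma rose from 2.62 to 20.2 FPKM. The synaptic calcium sensor syt1a rose from 5.27 to 16.2 FPKM, the membrane fusion gene snap25a from 18.5 to 44.0 FPKM and the RNA-binding protein gene elavl3 from 52.4 to 122 FPKM. Of 18 genes that give a neuron its transmitter, 10 rose and none fell (median 1.3). The GABA transporter slc6a1b went from 1.46 to 10.9 FPKM, the GABA-synthesizing enzyme gad2 from 1.41 to 6.94 FPKM and the serotonin transporter slc6a4a from 0.703 to 4.45 FPKM. Of 39 ionotropic receptor subunits, 15 rose (median 0.80, and 0.46 over all 68 members of the table). Among them were the NMDA receptor subunits grin1a (2.47 to 13.3 FPKM) and grin1b (0.118 to 3.65 FPKM). This list also holds subunits of the muscle receptor, and its summed FPKM was 210 and then 212. The 1 that fell was chrng of muscle.

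The list of neural progenitor and proneural genes did not fall as a group while neuronal genes rose. It also holds factors of later neurogenesis, so its counts and median do not speak for progenitors alone. Of 57 neural progenitor and proneural genes, 15 rose and 2 fell (median 0.61). The stem cell factor sox2 was at 55.0 and 60.8 FPKM. Factors of later neurogenesis rose, neurod4 from 13.3 to 59.4 FPKM, neurod6b from 1.23 to 8.04 FPKM and insm1b from 12.2 to 48.9 FPKM. The Notch effector hey1 fell from 29.8 to 11.5 FPKM. Among genes of radial glia, a few named here rose. The lipid carrier fabp7a went from 30.3 to 259 FPKM, 8.55-fold (95% interval 7.69 to 9.52), and the glutamate transporters slc1a3b and slc1a2b from 1.48 to 22.1 FPKM and 8.56 to 65.3 FPKM. Myelin genes were at or near 0, as mbpa had no read in either library and plp1b was at 0.158 and 0.204 FPKM. Over 27 measured glial genes, 8 rose and 2 fell (median 0.07), one of the latter egr2b (6.14 to 0.634 FPKM), a factor of hindbrain segments and later of myelinating cells.

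Neural crest specifiers showed no common direction, while melanophore genes rose. Of 21 crest specifiers, 4 fell and 2 rose (median -0.19, and 0.02 over all 23 members of the table). Among those that fell, crestin went from 2.94 to 0.283 FPKM, snai1b from 20.6 to 7.75 FPKM and msx1a from 19.7 to 7.25 FPKM, and sox10 stood at 17.9 and then 12.1 FPKM. Melanin synthesis genes rose, tyrp1b from 20.04 to 179 FPKM, dct from 18.2 to 108 FPKM and tyrp1a from 10.8 to 65.9 FPKM. The median of the melanophore list was 1.08. Its master regulator mitfa did not follow, at 5.27 and 4.18 FPKM, and tyrosinase (tyr) went from 16.4 to 27.5 FPKM, short of 2-fold. Of 25 genes of yellow and iridescent pigment cells, 7 rose and 2 fell. The pteridine enzyme gch2 rose from 37.8 to 151 FPKM, and tfec, a factor of iridophores, fell from 5.51 to 1.81 FPKM.

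In the skin, single keratins moved in opposite directions while the most abundant one stayed within 2-fold. Keratin krt4 of the outer layer was at 5169 and 5529 FPKM, among the 10 highest genes at both ages. The type I keratin krtt1c19e rose from 18.1 to 950.3 FPKM, 52.6-fold (95% interval 47.7 to 58), and krt91 from 7.01 to 87.0 FPKM, while krt92 fell from 232 to 29.0 FPKM. Over 55 measured epidermal genes, 3 rose and 12 fell (median -0.12, and 0.04 after rescaling). Keratins are close copies in part, so reads may be divided between them. Collagen XVII anchors basal skin cells to the matrix below, and its gene col17a1a rose from 0.240 to 20.6 FPKM, 86.1-fold (95% interval 53.6 to 148). Among 30 ionocyte genes, 6 rose and none fell. The ammonium transporters rhcga rose from 0.0933 to 34.2 FPKM and rhbg from 1.04 to 17.5 FPKM, the former from 3 to 1188 reads. The factor that specifies ionocytes, foxi3a, was at 5.20 and then 2.64 FPKM.

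The hatching gland, whose enzymes digest the egg envelope, gave the lowest median of any list over measured members. Of 10 measured genes, 6 fell and 1 rose, the cathepsin gene ctsl.1 from 0.0824 to 1.37 FPKM (median -2.5). The enzyme genes he2, he1b and he1a fell from 31.2 to 0.784 FPKM, 46.6 to 2.73 FPKM and 239 to 33.5 FPKM, and the cathepsin gene ctslb, present in 2 copies, from 46.6 to 2.60 FPKM in the copy that changed more. Over all 13 members of the table, 3 of them below 1 FPKM, the median was -0.36, no longer the lowest of the lists. For he2 the fall was 39.8-fold (95% interval 23.0 to 75.2). The gene models of he1a and he1b overlap on the same strand, so their reads cannot be told apart there. At 48 hpf, he1a was still read at 33.5 FPKM, against 6.28 in WT.

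Skeletal and matrix genes rose in part. The cartilage matrix gene matn3a rose from 1.66 to 43.5 FPKM, 26.3-fold (95% interval 20.5 to 34.3), and col9a1a from 3.09 to 11.4 FPKM, among 9 rises and no fall in 36 cartilage and bone genes (median 0.31). Of 48 collagen genes, 17 rose and 5 fell, and col2a1a of notochord and cartilage stood at 309 and 364 FPKM. The largest fall was col5a3a, from 19.1 to 4.11 FPKM, which is also in the notochord list. Of 27 notochord genes, 7 fell and 4 rose (median -0.44). The notochord factor noto fell from 4.80 to 0.887 FPKM.

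Genes of the endodermal organs were mostly low. The counts in this paragraph stand against 9.33% higher and 5.20% lower among all genes measured. For the kidney and ear lists they are too small to be read as a result. Of 58 liver and yolk plasma protein genes, 39 were measured, 6 rose and 9 fell (median -0.51). The plasma proteins fetub fell from 156 to 37.8 FPKM and tfa from 139 to 27.4 FPKM, while the lipid carriers apoda.1 rose from 0.0796 to 5.89 FPKM and apoea from 0.404 to 6.1 FPKM. The liver marker fabp10a had no read in either library, which with a floor of 3 reads per library says only that it was not detectable at this depth. Of 24 exocrine pancreas genes, 4 reached 1 FPKM, of which 2 fell and 1 rose (median -0.84). The pancreatic factor ptf1a rose from 1.96 to 5.82 FPKM, and the elastase gene ela2 fell from 3.95 to 1.41 FPKM. Hormone genes of the islet were measurable. Insulin (ins) rose from 5.32 to 15.8 FPKM and glucagon (gcgb) from 1.03 to 11.4 FPKM, the latter 11-fold (95% interval 5.58 to 24.7). Of 25 genes of endocrine pancreas and endoderm, 6 rose and 2 fell (median 0.26). Of 12 measured intestinal genes, 3 fell, fabp2 from 44.7 to 14.7 FPKM, and 2 rose, one of them pck1 of glucose synthesis from 3.80 to 11.1 FPKM. In the kidney list, 1 of 23 rose, the factor lhx1a from 2.73 to 28.4 FPKM, which neurons also use, and 1 fell, the salt transporter slc12a3 from 11.5 to 4.13 FPKM. Of 29 ear and hair cell genes, 1 fell, the otolith matrix gene oc90 from 38.6 to 9.41 FPKM, and 2 rose. Of 21 germ cell genes, 2 were measured and neither passed 2-fold.

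Genes of proliferation and of ribosome making leaned downwards, most of them by less than 2-fold. Of 60 DNA replication genes, 16 fell and none rose (median -0.79). The licensing factors cdt1 fell from 17.0 to 6.25 FPKM and gmnn from 14.9 to 4.92 FPKM, and the sliding clamp gene pcna from 518 to 254 FPKM. Of 73 mitosis genes, 3 fell and none rose, a share below the 5.20% of all genes that fell. Their lean was in small changes, with 71 log2 ratios below 0 and a median of -0.45, against -0.11 over all genes. The 3 were ncapd3 from 57.4 to 18.9 FPKM, ube2c from 76.6 to 34.1 FPKM and ccnb1 from 67.8 to 32.2 FPKM. After rescaling, 6 replication genes and 1 mitosis gene still fell. Of 103 ribosome biogenesis genes, 13 fell and none rose (median -0.76), nhp2 from 105 to 38.5 FPKM, nop56 from 179 to 81.2 FPKM and the nucleolar gene npm1a from 352 to 164 FPKM. After rescaling, 2 of them fell. None of the 82 cytosolic ribosomal protein genes passed 2-fold, and their median was -0.36. These medians kept their sign after rescaling.

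Genes of the growing tail had the lowest list median over measured members after the hatching gland. Presomitic mesoderm factors msgn1 fell from 13.0 to 0.382 FPKM and tbx6 from 12.5 to 0.494 FPKM, by 34-fold (95% interval 19.2 to 66.3) and 25.4-fold (95% interval 16.9 to 39.9). The posterior factor cdx4 fell from 17.3 to 0.882 FPKM, 19.6-fold (95% interval 12.9 to 31.3), the segmentation clock gene her1 from 5.04 to 0.247 FPKM and the brachyury gene ta from 26.1 to 11.5 FPKM. The Notch ligand dlc went against the list, at 16.3 and then 29.1 FPKM without passing 2-fold, and it is also used by neurons. The list median was -1.05, and -0.82 over all 37 members of the table. Hox genes, which hold position along the body, changed little. Of 48 measured, 2 fell, hoxb1a from 15 to 3.83 FPKM and hoxb1b from 32.9 to 12.6 FPKM, and none rose (median -0.29).

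The study follows Wnt target genes related to KDM5A. The zebrafish genes of these names, paralogs included, make 9 in the table, and not each paralog is named by the study. None of the 9 passed 2-fold, and their median log2 ratio was 0.41. Among all genes measured, 9.33% rose and 5.20% fell, so none among 9 says little by itself. The scaffold gene axin2, a feedback target of the pathway, was at 25.6 and 23.8 FPKM, and the coactivator bcl9l at 5.67 and 5.84. The neural factors sox1a went from 7.89 to 13.3 FPKM and sox1b from 19.6 to 18.2 FPKM. The proneural factors atoh1a went from 1.79 to 2.70 FPKM and atoh1b from 12.9 to 20.2 FPKM. The ventral neural factors nkx2.2a went from 6.37 to 11.6 FPKM and nkx2.2b from 3.37 to 4.07 FPKM, and the motor neuron factor isl1 from 10.8 to 19.1 FPKM. The largest of these ratios, that of nkx2.2a, was 1.82-fold (95% interval 1.51 to 2.2) and that of isl1 1.77-fold (95% interval 1.56 to 2.02). The study examined genes of this group in its 24 hpf zebrafish libraries too, so the 24 hpf values are not independent of its results.

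Other genes of the pathway moved in both directions. The counts in this paragraph stand against 9.33% higher and 5.20% lower among all genes measured. They are too small to be read as a result for a list. Of 21 measured Wnt ligands, 3 rose (wnt4b from 1.39 to 5.79 FPKM, wnt7aa from 5.95 to 13.1 FPKM and wnt9b from 4.69 to 10.5 FPKM). The 2 that fell were wnt10b from 17.5 to 4.56 FPKM and wnt11 from 9.01 to 3.21 FPKM. Of 35 feedback and antagonist genes, 3 fell and none rose. The direct target sp5l fell from 7.70 to 0.244 FPKM, 31.5-fold (95% interval 15.7 to 73.8), the transcription factor tcf7 from 12.8 to 3.83 FPKM and the agonist rspo1 from 16.6 to 6.99 FPKM. The factor lef1 stood at 11.1 and 13.0 FPKM. The median was -0.10, and 0.06 after rescaling. Hedgehog and floor plate genes mostly stayed within 2-fold. The ligand shha was at 12.2 and 13.0 FPKM, and of 34 genes 2 rose, the motor neuron and oligodendrocyte factor olig2 from 5.93 to 18.3 FPKM and the guidance cue ntn1b from 8.62 to 23.6 FPKM. Of 46 Fgf ligands and feedback genes, 8 rose and 4 fell, the largest fall being fgf17 from 5.98 to 0.750 FPKM. The Fgf feedback gene dusp6 was at 70.22 and 62.2 FPKM.

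Most chromatin genes related to KDM5A stayed within 2-fold. Of 57 measured lysine demethylases and H3K4 methyltransferase complex genes, 3 rose and 2 fell (median -0.01, and 0.13 after rescaling). Among all genes measured, 9.33% rose and 5.20% fell, so these counts are too small to be read as a result. After rescaling, 4 genes of the list rose and none fell, so the falls named next did not hold there. The H3K27 demethylase kdm6bb rose from 11.2 to 25.8 FPKM and kdm7aa from 7.72 to 18.1 FPKM, and smyd1a of muscle rose too, while smyd1b and smyd2a fell. Linker histones were the histone genes that rose, h1fx from 18.2 to 86.8 FPKM and h1f0 from 262 to 597 FPKM. The histone list holds 17 measured genes, since many core histone genes carry clone names and were not in it.

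Genes of glycolysis rose broadly. Of 34 glycolysis genes, 21 rose and 1 fell (median 1.32). The phosphofructokinase gene pfkma rose from 0.377 to 12.1 FPKM, the pyruvate kinase gene pkmb from 9.16 to 78.8 FPKM and gapdhs from 55.8 to 355 FPKM. The glucose transporter slc2a1a was the fall, from 21.0 to 1.37 FPKM, 15.4-fold (95% interval 11.1 to 21.9). None of the 13 mitochondrially encoded genes passed 2-fold (median 0.15), with mt-co1 at 6939 and 10214 FPKM. Of 82 nuclear genes of the respiratory chain, 4 rose and none fell, cox4i1l from 0.35 to 10.4 FPKM and ndufa4 from 15 to 43.1 FPKM. Of 42 clock genes, 7 rose and 1 fell. The repressor nr1d2a rose from 2.27 to 13.4 FPKM, per2 went from 5.10 to 8.96 FPKM and per1b from 10.9 to 7.10 FPKM.

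**Figure D3:**
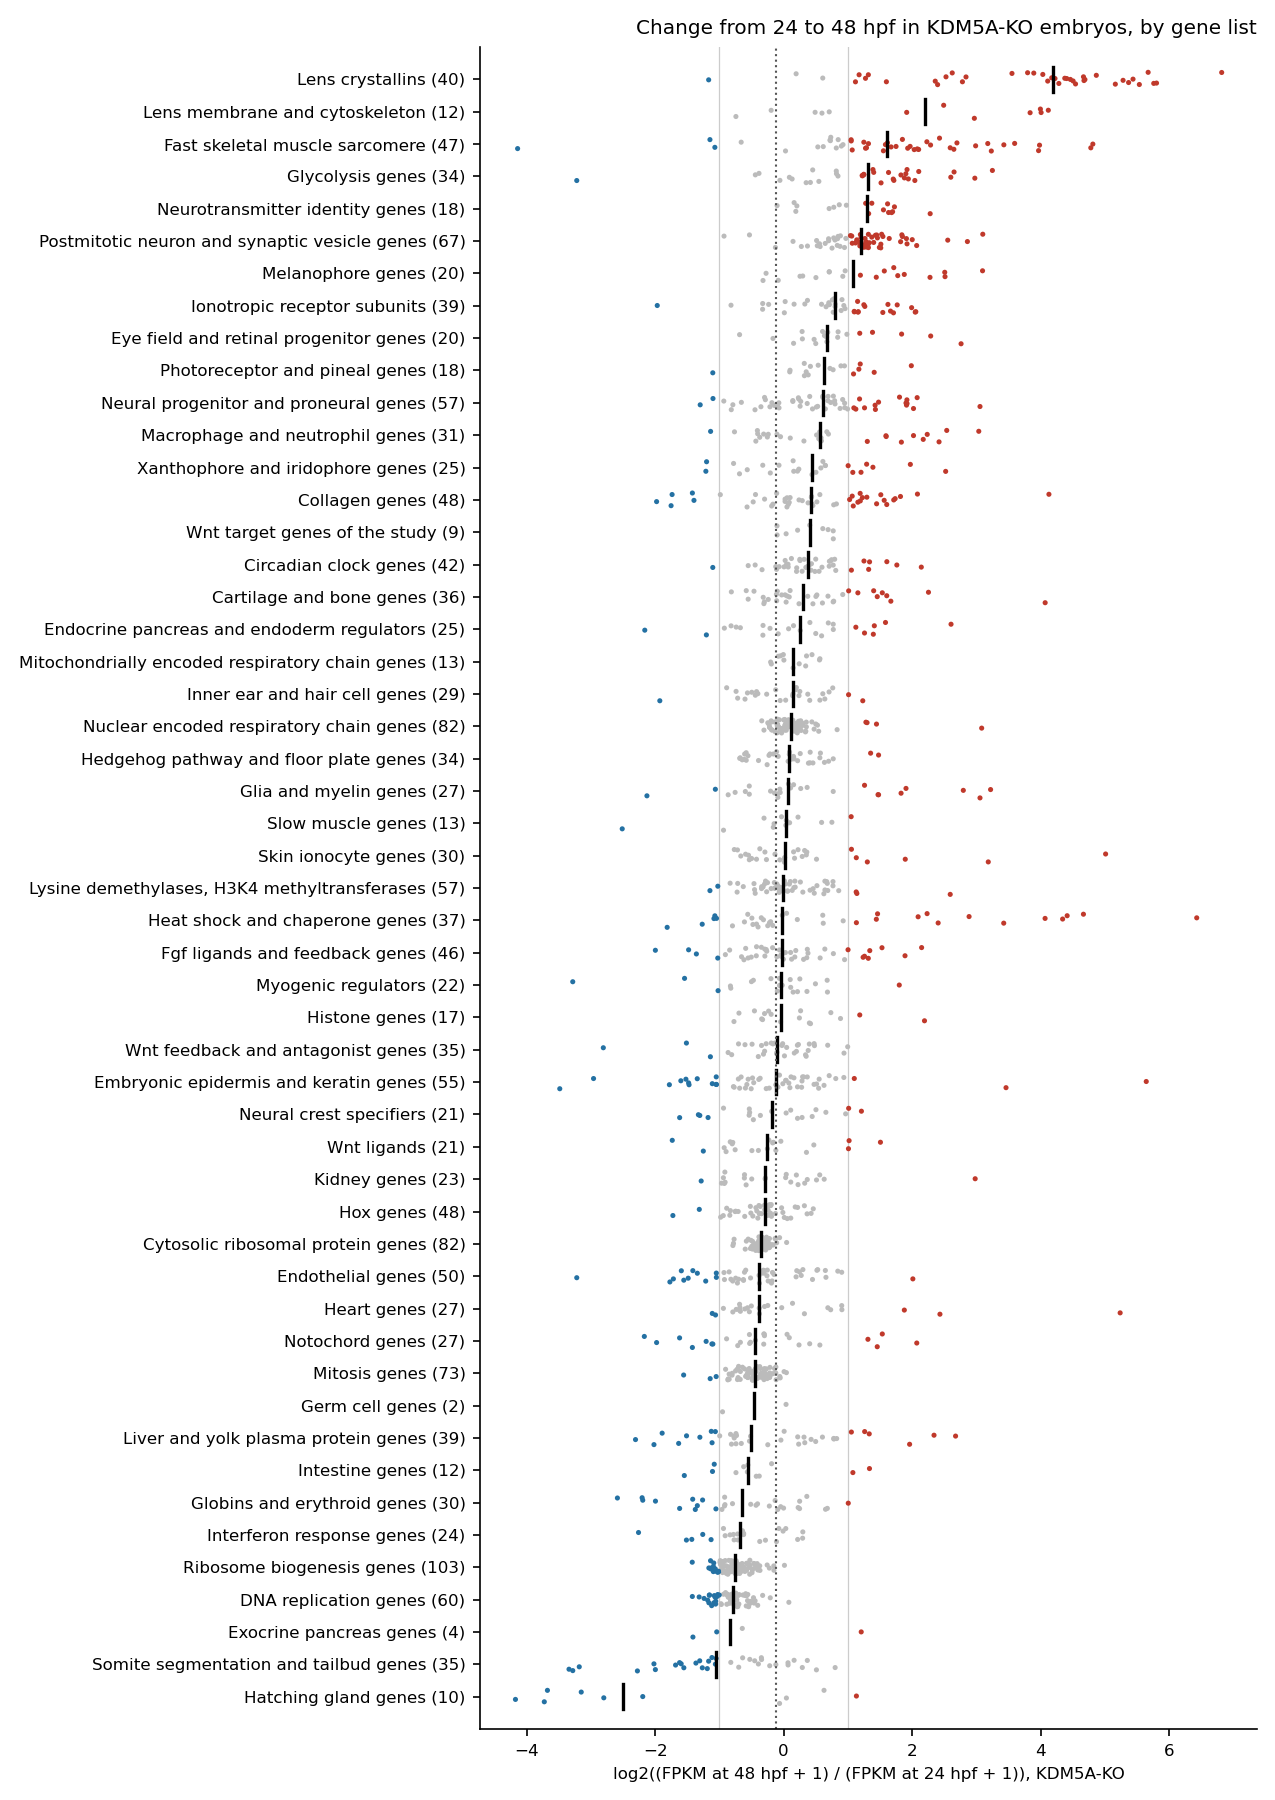
Log2 ratio of every measured member (1 point per gene, red past 2-fold higher, blue past 2-fold lower, grey neither) of the 51 gene lists in the libraries labelled KDM5A-KO, with the number measured in brackets, a bar at each list median and a dotted line at the median of all genes (-0.11). Lens crystallins stand at the top (4.2) and hatching gland genes at the bottom (-2.5).

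Immune and stress genes held some of the larger changes. Of 31 measured macrophage and neutrophil genes, 10 rose and 1 fell (median 0.56). The cytokine il1b rose from 1.1 to 16.2 FPKM, 14.8-fold (95% interval 10.21 to 22.1), and the neutrophil attractant CXCL8 from 2.75 to 19 FPKM. The matrix proteases mmp13a rose from 3.96 to 22.3 FPKM and mmp9 from 26.1 to 80.7 FPKM, and the protease inhibitor timp2b from 6.29 to 41.3 FPKM. The 1 gene of the list that fell was cd74a, from 2.93 to 0.789 FPKM (55 to 16 reads). Of the 31 measured, 11 had log2 ratios below 0. The markers of the cells themselves that are named next were higher at the later age. Of these, mpx and mpeg1.1 did not pass the threshold for a rise. The neutrophil enzyme mpx was at 0.837 and 1.98 FPKM, the macrophage gene mpeg1.1 at 0.180 and 0.715, and lysozyme (lyz) rose from 6.31 to 25.0 FPKM. A copy next to the macrophage gene in name, mpeg1.2, rose from 0.824 to 7.21 FPKM. Of 24 measured interferon response genes, 5 fell and none rose (median -0.68). The ubiquitin-like modifier isg15 fell from 60.7 to 11.9 FPKM, 5.10-fold (95% interval 4.4 to 5.94), and the antigen presentation genes b2m fell from 25.9 to 8.99 FPKM and mhc1uba from 5.46 to 1.70 FPKM.

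Several genes of the Hsp70 family rose from low levels. The gene hsp70l went from 0.708 to 146 FPKM, 206-fold (95% interval 138 to 322), hsp70.1 from 0.207 to 24.7 FPKM, hsp70.2 from 1.65 to 66.2 FPKM and hsp70.3 from 6.42 to 123.3 FPKM. These copies are near-identical in part, so their shares are uncertain. The gene listed as hsc70, named for a cognate form, rose as well, from 0.11 to 21.5 FPKM, 195-fold (95% interval 75.9 to 718). The cytosolic chaperone gene hsp90aa1.2 rose from 7.56 to 62.2 FPKM, the abundant hspa8 stood at 1480.5 and 1123 FPKM, and the small heat shock gene hspb1 fell from 166 to 46.7 FPKM. Of the 37 measured genes of the list, 13 rose and 5 fell, and the median of -0.02 (0.14 after rescaling) does not show these rises.

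**Figure D4:**
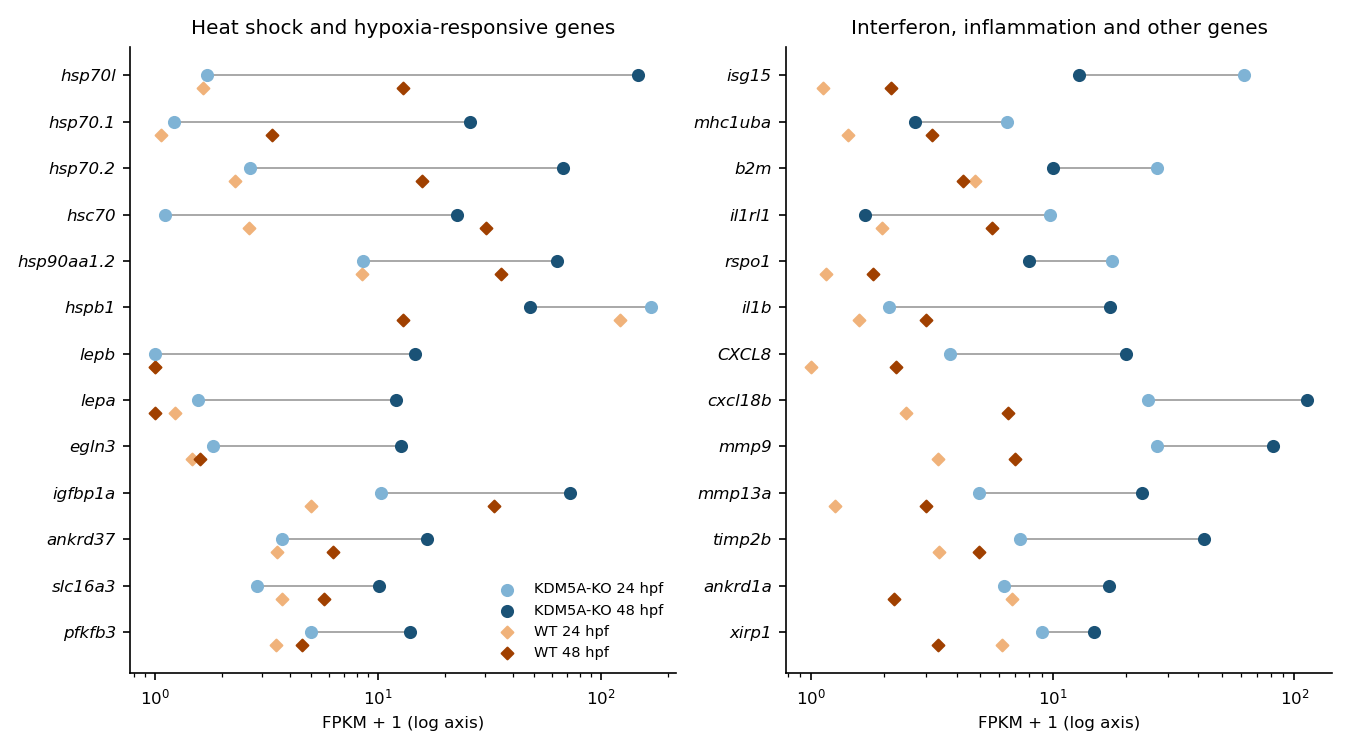
FPKM plus 1 on a log axis for heat shock and hypoxia-responsive genes (left) and for interferon, inflammation and other genes (right), 1 point per library, with circles for the libraries labelled KDM5A-KO and diamonds for WT. hsp70l ends at 146 FPKM in the 48 hpf library and at 11.9 in WT, and isg15 begins at 60.7 FPKM in the 24 hpf library and at 0.118 in WT.

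The same step was set beside that of WT embryos, over the same 18218 genes. From 24 to 48 hpf in WT, 2909 genes were past 2-fold higher (16.0%) and 1018 lower (5.59%), with a median log2 ratio of 0.13 against -0.11. The comparisons share no library, but the WT library of 24 hpf has fewer reads and more rRNA than the others. Leaving rRNA genes out of the totals moves WT log2 ratios by -0.18 and those of the libraries labelled KDM5A-KO by -0.0020. With those totals, 2552 genes were higher and 1405 lower in WT. Across genes, which are not independent replicates, the Spearman correlation of the changes was 0.72. Of the genes that rose in the libraries labelled KDM5A-KO, 1296 also rose in WT, 76.3% of the former and 44.6% of the latter. Of those that fell, 421 also fell in WT, 44.4% and 41.4%. Opposite moves past 2-fold were found for 15 genes up and 18 genes down in the libraries labelled KDM5A-KO. None of these differences has a replicate check.

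Lists of the eye and of differentiated neurons had higher medians in WT, whose values here use totals with the rRNA genes included. The photoreceptor and pineal list stood at 0.63 against 2.27 in WT, where 14 of 18 rose in place of 5. The crystallin medians were 4.2 and 4.78, those of retinal progenitors 0.67 and 1.25, and those of postmitotic neurons 1.21 and 1.99. Liver and yolk plasma protein genes had -0.51 against 0.97 and interferon response genes -0.68 against 0.03. Members entered through the libraries labelled KDM5A-KO alone, so a gene high in just 1 of these had to change there but not in WT. The filter can thus shape these contrasts. Summed over all 47 interferon genes of the table, FPKM was 304 and then 158, against 81.3 and 72.2 in WT. Fast muscle went the other way, with 1.61 against 0.97, as did neural progenitor and proneural genes, with 0.61 against 0.18. Medians that lay close in both were those of glycolysis (1.32 and 1.22), melanophores (1.08 and 1.25) and cartilage (0.31 and 0.30). The WT changes of ribosome biogenesis (-1.14) and DNA replication (-1.1) lay further below 0 than those of the libraries labelled KDM5A-KO (-0.76 and -0.79).

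**Figure D5:**
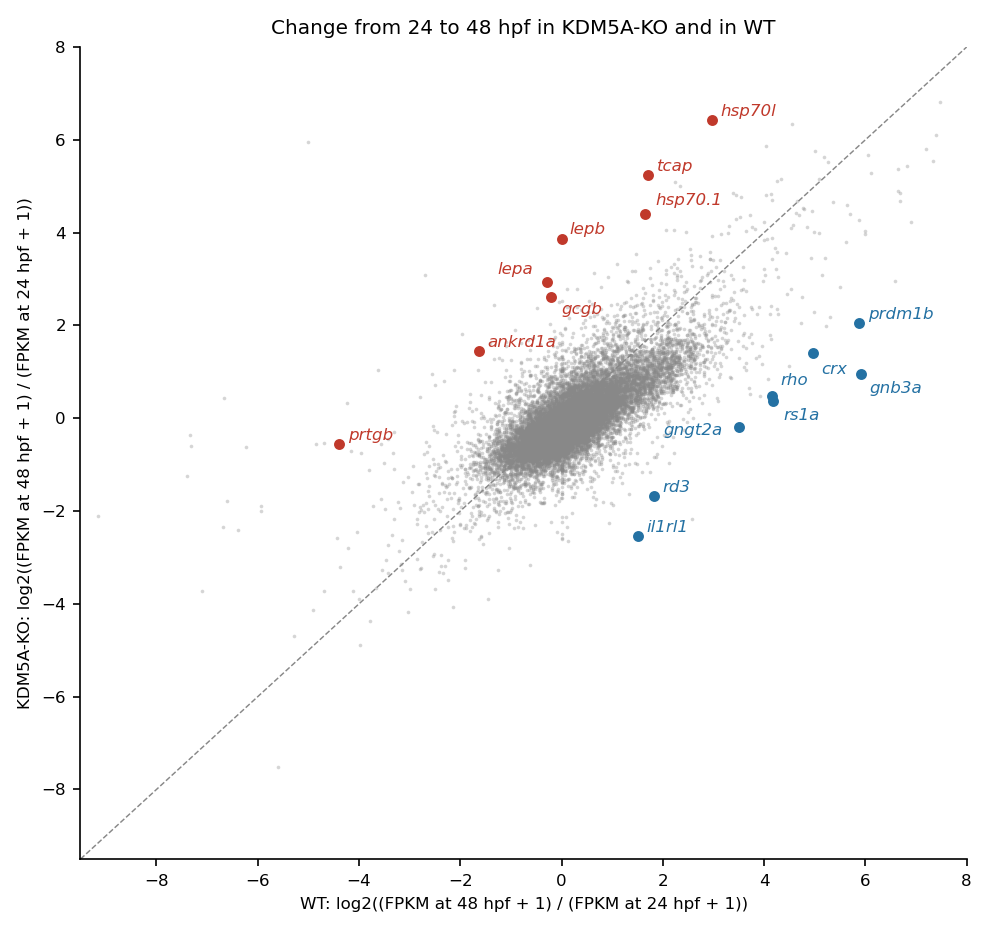
Log2 ratio of FPKM plus 1, 48 over 24 hpf, for the KDM5A-KO label (vertical axis) against that in WT (horizontal axis), 1 grey point for each of 18218 genes, with a dashed line where both are equal. Red and blue points are the 8 genes furthest above and the 8 furthest below in the difference, from lepb (3.87) to gnb3a (-4.97).

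The genes whose change lay furthest below that of WT included 6 genes of the retina among 8. The cone G protein subunit gnb3a reached 0.994 FPKM at 48 hpf against 59.5 in WT, from 0.0347 and 0 at 24 hpf, a difference in log2 ratio of -4.97. The photoreceptor factor crx reached 2.64 against 42.3 FPKM, with a difference in the log2 of the FPKM ratios of -3.91 (95% interval -5.50 to -2.44). Rhodopsin reached 0.404 against 16.9, rs1a, which holds retinal layers together in mammals, 0.359 against 18.7, and the cone subunit gngt2a was at 1.43 against 10.28 FPKM. The factor prdm1b went from 5.88 to 27.7 FPKM and in WT from 0 to 58 FPKM. At 24 hpf, rd3, which controls photoreceptor guanylate cyclase, was at 15.9 FPKM and at 1.24 in WT, and it fell to 4.31 while the WT value went up to 6.92. The interleukin receptor gene il1rl1 went from 8.76 to 0.675 FPKM (36 to 3 reads), against 0.963 to 4.62 FPKM in WT (2 to 20 reads).

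The genes whose change lay furthest above that of WT included genes of heat shock, hormones and striated muscle. The leptin gene lepb had no read in 3 libraries and 128 in the 48 hpf library, where it reached 13.6 FPKM, at least 39.5-fold higher than at 24 hpf with a floor of 3 reads. Its paralog lepa went from 0.558 to 10.9 FPKM, while in WT it stood at 0.221 and then 0. In fish, leptin genes respond to low oxygen. The heat shock genes hsp70l and hsp70.1 ended at 146 and 24.7 FPKM against 11.9 and 2.33 in WT. For hsp70l the difference in the log2 of the FPKM ratios was 3.47 (95% interval 2.28 to 4.57). For hsp70.1 it was 1.58 (95% interval -3.93 to 4.57), an interval that includes 0. Telethonin (tcap) ended at 178 against 23.4 FPKM, a difference of 3.70 (95% interval 3.14 to 4.26). The muscle ankyrin repeat gene ankrd1a went from 5.28 to 16.1 FPKM and in WT from 5.78 to 1.19 FPKM. Glucagon (gcgb) reached 11.4 against 1.63 FPKM. The cell surface gene prtgb differed through WT, where it fell from 40.4 to 0.977 FPKM, against 13.3 to 8.67 FPKM here.

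For some genes of immunity and signalling the libraries already differed at 24 hpf. The modifier isg15 was at 60.7 FPKM in the 24 hpf library and 0.118 in WT, and at 48 hpf at 11.9 and 1.13. The Wnt agonist rspo1 was at 16.6 and 0.155 FPKM at 24 hpf and at 6.99 and 0.793 at 48 hpf. For mmp9 the levels were 26.1 and 2.36 FPKM at 24 hpf and 80.7 and 5.96 at 48 hpf, so the fold over time was similar in both while the level was not. The part that age, handling or library preparation had in these levels was not tested, and with 1 library per group they cannot be told apart from genotype.

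Depth and threshold set what can be said of single genes. The 51 lists hold 2019 genes of the table, of which 1682 reached 1 FPKM in either library and 337 did not. A gene that entered through its higher library alone had to show a difference, so counts over measured members are not evidence for a list by themselves. Under the rescaling by the median ratio, 15 of the named genes that fell lay short of 2-fold. These were aanat2, ccnb1, cmlc1, ela2, fbl, mef2d, nop56, npm1a, pcna, polr1b, rspo1, smyd1b, ta, ube2c and unc45b.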

How the data were processed

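RNA of whole zebrafish embryos was sequenced in 4 libraries, 1 for each genotype and age. Per the labels, the authors checked reads with FastQC 0.11.5, aligned them with HISAT2 2.1.0, quantified genes with StringTie 1.3.3b and used DESeq 1.28.0. The labels name a mouse genome build, and the zebrafish build is not given in the sources used here, so no coordinates are printed. The deposited values are FPKM per gene, normalized by the authors for gene length and library total, with annotation columns and no columns of the authors' own comparisons. All columns of values were mapped to a sample (0 left unmapped).

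Whole reads and library totals were recovered from the steps of the FPKM values. For 26812 of 26812 genes a gene length was found at which the values of all libraries were whole reads within a tolerance of 2e-06 reads plus rounding. These reads summed to 98.2% to 98.5% of the recovered totals. They gave exact (Clopper-Pearson) 95% intervals of ratios, and a floor of 3 reads per library stood for 0. These intervals cover counting error only. Genes of 1 FPKM or more in either KDM5A-KO library were compared as log2 ratios with a pseudocount of 1 FPKM. The count model of the study's kind was not run, since 1 library per group leaves no residual degrees of freedom, and no p-value is given.

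The members and the 51 gene lists were chosen with earlier results of these data known. Named genes were KDM5A, its 3 paralogs and the 9 zebrafish genes of the study's Wnt target names, the 15 largest rises and falls, the 10 highest genes per library, 4 members per list by size of change and the largest against it, and the 8 largest differences from WT either way with 5 FPKM in a library. Besides these, 86 of the 356 named genes were picked once values were known. Alternatives were another pseudocount, rescaling by the median ratio, totals without rRNA genes, other filters, a 3-fold threshold and protein-coding genes only. The 232 genes counted as rRNA include neighbours within 15 kb of some of the rRNA genes. The computation was tested on simulated data and used pandas 2.3.3, scipy 1.17.1 and numpy 2.4.6 under Python 3.11.15, with figures from matplotlib 3.10.9. Of the gene identifiers, 23853 matched a current symbol. Without strand information, reads of overlapping genes cannot be told apart.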

Additional observations from a re-analysis of the deposited data

Results flagged for a closer look

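In 4 named genes the libraries labelled KDM5A-KO and the WT libraries moved past 2-fold in opposite directions between 24 and 48 hpf. The difference was not tested since each group had 1 library.

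For ankrd1a, a gene of stretched or stressed muscle, the change in the libraries labelled KDM5A-KO minus that in WT was 3.07 on the log2 scale, from 5.28 to 16.1 FPKM against 5.78 to 1.19 FPKM. The receptor gene il1rl1 gave -4.06, from 8.76 to 0.675 FPKM against 0.963 to 4.62 FPKM. The antigen presentation gene mhc1uba gave -2.42, from 5.46 to 1.70 FPKM against 0.421 to 2.17 FPKM. The photoreceptor gene rd3 gave -3.50, from 15.9 to 4.31 FPKM against 1.24 to 6.92 FPKM. In the last 3 genes, the value of the 24 hpf library labelled KDM5A-KO lay above that of WT at the same age, and the value at 48 hpf lay below it.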

How the results depend on the processing

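No paired analysis was possible because there was a single library of each kind, and for the same reason no library could be left out. With a pseudocount of 0.1 FPKM, 2615 genes were higher and 1622 lower at 48 than at 24 hpf under the KDM5A-KO label. With a mean of at least 5 FPKM the counts were 762 and 529, and with a 3-fold threshold 645 and 255. A smaller pseudocount lets low genes pass, and a stricter filter or threshold leaves fewer by construction. The other settings stayed within 1.5 times of 1699 and 948, including 1635 and 871 genes whose counting interval also excluded equality.

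Among the 51 list medians, none changed sign with a pseudocount of 0.1 FPKM, and 7 that lay near 0 did under rescaling by the median ratio (myogenic regulators, epidermis, histones, H3K4 and lysine demethylases, Wnt feedback, Fgf, and heat shock). The smaller pseudocount moved lens crystallins to 5.39, photoreceptor and pineal genes to 1.1, postmitotic neurons to 1.35, neurotransmitter genes to 1.74, ionotropic receptors to 1.55 and interferon genes to -1.20. Counting every member in the table moved photoreceptor and pineal genes to 0.15, intestine to -0.067 and ionotropic receptors to 0.46, since members near 0 enter. The same setting moved hatching gland genes to -0.36, neurotransmitter genes to 0.71, liver and yolk genes to -0.16, macrophage and neutrophil genes to 0.10, exocrine pancreas genes to -0.023, interferon genes to -0.28, cartilage and bone genes to 0.16 and endocrine genes to 0.15, and crest specifiers changed sign to 0.02. Rescaling moved DNA replication to -0.63, mitosis to -0.29, Hox to -0.14, postmitotic neurons to 1.37, endothelium to -0.23, ribosomal proteins to -0.19, ribosome biogenesis to -0.60 and the nuclear respiratory chain to 0.28. Of 356 named genes, 16 newly passed 2-fold with the smaller pseudocount, and under rescaling 15 no longer did, 4 newly did and 3 (axin2, sox1b and mki67) changed sign. Totals without rRNA genes changed none of these calls. The WT counts with such totals were added after seeing the data.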

Other observations

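The groups below were gathered after their values were seen and are given as values without a test. Several genes known to respond to low oxygen rose in the libraries labelled KDM5A-KO. They were picked for their values, so no count is given. The glucose transporter slc2a1a, which also responds to low oxygen in mammals, was not among them and fell from 21.0 to 1.37 FPKM, against 11.1 to 2.23 FPKM in WT. The leptin genes are given above. The oxygen sensor egln3 rose from 0.821 to 11.6 FPKM and in WT was at 0.464 and 0.584 FPKM. The growth factor binding protein gene igfbp1a rose from 9.31 to 71.6 FPKM, against 4.02 to 32.2 FPKM in WT. The adrenomedullin gene adma rose from 2.54 to 23.0 FPKM, against 2.47 to 15 FPKM. The glycolytic regulator pfkfb3 went from 3.99 to 12.9 FPKM and the lactate transporter slc16a3 from 1.85 to 9.08 FPKM, against 2.47 to 3.56 FPKM and 2.71 to 4.74 FPKM in WT. Other genes of the same kind did not pass 2-fold, with vegfaa at 6.29 and 11.3 FPKM and pdk1 at 5.32 and 5.59.

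Several immediate early genes, which cells switch on within minutes of a stimulus or of handling, rose in both pairs of libraries. These too were picked for their values, so no count is given. fosab went from 8.87 to 82.6 FPKM and in WT from 1.19 to 76.4 FPKM. egr1 went from 3.83 to 43.6 FPKM and in WT from 1.87 to 52.9 FPKM, and npas4a of active neurons from 0.0430 to 7.04 FPKM and in WT from 0.0284 to 15.3 FPKM. The inflammatory genes cxcl18b and ptgs2b rose too, cxcl18b from 23.9 to 112 FPKM against 1.46 to 5.50 FPKM in WT and ptgs2b from 2.36 to 21.5 FPKM against 0.999 to 10.1 FPKM. The part of handling in these values was not tested.

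Actinodins, structural proteins of the fin fold, rose together. and1 went from 22.3 to 194 FPKM, and2 from 7.47 to 138 FPKM and and3 from 1.68 to 75.1 FPKM, against 24 to 128 FPKM, 8.36 to 117 FPKM and 3.99 to 86.4 FPKM in WT. The stretch-responsive muscle gene ankrd1b rose from 0.957 to 35.7 FPKM and in WT from 0.897 to 29.3 FPKM, unlike ankrd1a.

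Small RNA genes leaned downwards. Of 68 measured snoRNA genes, which guide the modification of rRNA, 32 fell and 5 rose, with a median log2 ratio of -0.88. Of 22 genes of the biotype misc_RNA, 17 fell and none rose, with a median of -1.21. Such short RNAs are recovered unevenly by libraries made for mRNA, and the part of the library preparation was not tested. Of 201 lincRNA genes, 25 rose and 21 fell, and of 78 antisense genes 7 rose and 12 fell. All these counts stand against 9.33% higher and 5.20% lower among all genes measured.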
